A study of Mus musculus with 8 samples.

Results

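The integrated stress response and the unfolded protein response were followed through 10 genes, which were chosen by name from the 27179 genes of the count table: the sensors Ern1 and Atf6, the transcription factors Xbp1, Atf4, Atf3 and Ddit3, and the target genes Trib3, Asns, Chac1 and Sesn2. All 10 passed the filter on low counts and were among the 14382 genes tested. The study sequenced RNA from 8 whole primary tumours of the 4T1.13 line, a metastatic mouse mammary carcinoma line, and compared 4 tumours with reduced miR-21 activity with 4 vector controls. Both groups were grown orthotopically in BALB/c mice, female by the methods of the study. The labels give 100000 injected cells and recovery on day 14, at the start of regression of the knockdown tumours, while the text of the study puts that recovery on an earlier day and gives a larger number of cells for the growth curve it refers to. The 4T1.13-miR-21-KD cells carried a lentiviral vector in which the H1 promoter drives a transcript that traps the mature microRNA, and the 4T1.13-VC cells carried the same vector with a scrambled sequence. Each line was pooled from single-cell clones, and only the injected carcinoma cells carried a vector, not the host cells in the tumour. Each library held 12134849 to 13592695 counts, so that a count of 0 allows up to 0.221 to 0.245 CPM (counts scaled to a common library size and given per 1e6 counts), a limit that covers counting error only.

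Cells slow general protein synthesis and switch on rescue genes when proteins misfold, amino acids run short or double-stranded RNA appears. In the integrated stress response, 4 kinases phosphorylate the initiation factor eIF2alpha, which lowers overall translation but favours translation of ATF4, and ATF4, often with ATF3 and CHOP (the product of Ddit3), then activates genes of amino acid supply and cell death. In the unfolded protein response of the endoplasmic reticulum (ER), PERK feeds into the same route, IRE1 (the product of Ern1) splices the messenger RNA of Xbp1, and ATF6 is cut in the Golgi to release a transcription factor. Phosphorylation, splicing and cleavage do not show in counts per gene, and ATF4 is controlled largely at translation, so the values below are levels of messenger RNA only.

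The sequestered microRNA is shown first, with its seed (bases 2 to 8) in capitals, since it is the molecule whose activity was lowered. In RefSeq it lies at chr11:86584120-86584141 (GRCm38.p6, minus strand).
mmu-miR-21a-5p: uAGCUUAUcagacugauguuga
The 7 bases that pair with this seed, ATAAGCT, were in the longest annotated 3′ UTR of 0 of the 10 genes, against 8.16% of 13242 tested genes with an annotated UTR. The UTRs of the 10 genes were between 81 bases (Atf4) and 5205 bases (Atf6) long, beside a median of 1347 bases for the tested genes. With 10 genes, 0 matches cannot be told apart from the share of all tested genes. The gene of the precursor, Mir21a, had 0 counts in all 8 tumours, which does not check the knockdown because the vector acts on the mature microRNA.

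Promoters of 9 of the 10 genes, all but Atf6, were in the RefSeq table, which covers 250 bases before to 50 bases after the start of transcription. The C/EBP-ATF composite motif, through which ATF4 is known to act, was searched as TGATGNAA on both strands. It was present in 4 of the 9 promoters, those of Atf3, Trib3, Asns and Chac1, against 2.87% of the 11032 tested genes with a promoter and 3.97% of all 32851 promoters. The genes were chosen by name as members of the pathway, so this share describes the choice of genes and not these tumours. The 4 promoters are shown with the match in capitals: Atf3 at chr1:191183284-191183583 (minus strand), Trib3 at chr2:152344011-152344310 (minus strand), Asns at chr6:7693160-7693459 (minus strand) and Chac1 at chr2:119350992-119351291 (plus strand), all on GRCm38.p6.
Atf3: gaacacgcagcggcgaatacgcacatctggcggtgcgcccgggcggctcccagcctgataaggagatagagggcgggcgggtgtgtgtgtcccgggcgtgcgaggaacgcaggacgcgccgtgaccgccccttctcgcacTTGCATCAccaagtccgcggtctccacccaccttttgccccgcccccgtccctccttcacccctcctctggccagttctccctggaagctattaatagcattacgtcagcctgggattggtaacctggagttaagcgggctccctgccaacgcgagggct
Trib3: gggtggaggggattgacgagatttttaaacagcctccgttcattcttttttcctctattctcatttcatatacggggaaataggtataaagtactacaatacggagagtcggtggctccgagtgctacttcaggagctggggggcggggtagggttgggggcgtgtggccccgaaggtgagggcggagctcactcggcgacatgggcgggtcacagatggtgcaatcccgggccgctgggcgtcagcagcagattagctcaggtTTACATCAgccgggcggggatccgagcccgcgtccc
Asns: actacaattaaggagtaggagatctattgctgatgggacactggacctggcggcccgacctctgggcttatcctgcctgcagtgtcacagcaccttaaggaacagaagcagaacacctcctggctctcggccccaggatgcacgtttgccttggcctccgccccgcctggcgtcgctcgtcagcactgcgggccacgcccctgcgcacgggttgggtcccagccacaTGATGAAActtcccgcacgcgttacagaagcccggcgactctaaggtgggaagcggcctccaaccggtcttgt
Chac1: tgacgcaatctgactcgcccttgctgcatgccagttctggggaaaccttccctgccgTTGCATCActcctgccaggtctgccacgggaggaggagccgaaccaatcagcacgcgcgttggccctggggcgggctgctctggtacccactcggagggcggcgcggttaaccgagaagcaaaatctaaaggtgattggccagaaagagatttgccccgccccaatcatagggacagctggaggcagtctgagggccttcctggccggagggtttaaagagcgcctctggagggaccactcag
The match lies at bases -110 to -103 from the start in Atf3, 15 to 22 in Trib3, -23 to -16 in Asns and -193 to -186 in Chac1, where base 1 is the start and no base is numbered 0. In Atf3, Trib3 and Chac1 it reads on the strand opposite to the gene. No match in these windows was found for the cyclic AMP response element TGACGTCA, the unfolded protein response element TGACGTGG or the ER stress response element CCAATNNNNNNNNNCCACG, which stand in 3.39%, 1.05% and 0.163% of the tested genes' promoters.

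Atf3, Trib3 and Sesn2 had higher levels in the miR-21-KD than in the VC tumours, 1.69-fold, 2.28-fold and 1.5-fold by the ratio of the means, and 0 of the 10 genes were lower (edgeR quasi-likelihood test, adjusted p under 0.05 over all 14382 tested genes). Among all tested genes 39.1% passed this test, 19.6% as higher and 19.5% as lower, and the 3 of 10 is read against these shares. At an unadjusted p under 0.05, 4 of the 10 were higher and 0 lower, beside 25.3% and 25.4% of all tested genes. DESeq2 called 3 higher and 0 lower, beside 24.0% and 21.7% of the genes it gave an adjusted p, and limma-voom 2 higher and 0 lower, beside 19.8% and 20.2%. The median log2 fold change of the 10 genes was 0.35, against -0.01 for all tested genes. For 2 of the 10 genes, Atf3 and Sesn2, no value of one group lay within the range of the other, and this held for 35.2% of all tested genes. With the replicate number as a block, 2 of the 10 were called higher and 0 lower, beside 23.0% and 22.1% of all tested genes, and Trib3 was the call lost (edgeR adjusted p = 0.0519). Without VC tumour 3, Atf3 alone was called among the 10, while the calls over all genes went from 5626 to 2948.

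**Figure D1:**
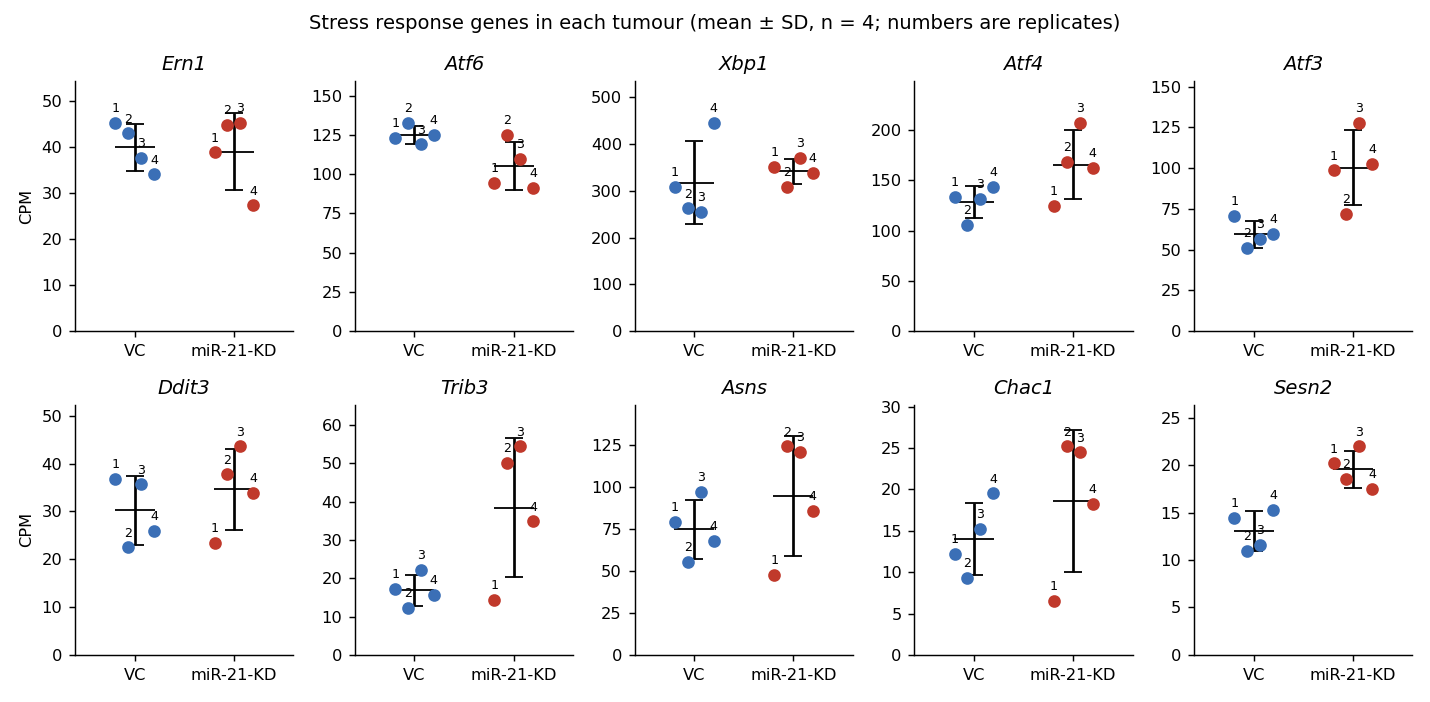
CPM of the 10 genes in each tumour, with VC tumours in blue and miR-21-KD tumours in red; points are tumours marked by their replicate number, and the black bars give the mean ± SD (n = 4). Atf3 and Sesn2 separate the groups, while for Trib3 the value of miR-21-KD tumour 1 (14.4 CPM) lies within the VC range.

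The levels in whole tumours combine carcinoma and host cells, and fewer cells of a type cannot be told apart from less RNA per cell. Markers of carcinoma epithelium (Epcam, Cdh1 and keratins) were present in every tumour, summing to 1306 to 2267 CPM in VC and 1085 to 2063 CPM in miR-21-KD tumours, with 6 of 8 called higher and 1 lower. The summed macrophage and monocyte markers were at 2697 to 4014 CPM in VC and 5396 to 8459 CPM in miR-21-KD tumours, with 7 of 8 called higher. Fibroblast markers summed to 1966 to 4542 and 6024 to 13016 CPM with 5 of 6 higher, adipocyte markers to 85.1 to 319 and 428 to 1123 CPM with 5 of 5 higher, and T cell markers to 45.2 to 165 and 144 to 294 CPM with 6 of 8 higher. Fewer were called higher among tested markers of neutrophils (0 of 6), B cells (0 of 5), endothelium (1 of 5), natural killer cells (2 of 6) and dendritic cells (3 of 7). Neutrophil sums overlapped, at 293 to 795 CPM in VC and 384 to 673 CPM in miR-21-KD tumours. Of all tested genes 19.6% were called higher. No marker of these lists was at 0 in all tumours. Of the knockdown tumours, tumour 2 lay nearest to the VC tumours on the first principal component of all tested genes (67.5% of the variance), at 7.13 against 45.6 to 76.5 in the other 3 and -78.4 to -23.3 in the VC tumours, and it had the lowest macrophage, fibroblast and adipocyte marker sums of its group. These shifts accompany every difference described here, and their part in it was not tested.

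The sensors showed no difference that passed the test. Ern1 encodes IRE1, the ER membrane kinase and nuclease that splices Xbp1. It was at 45.4, 43.0, 37.6 and 34.1 CPM in VC tumours 1 to 4 and at 38.9, 44.8, 45.3 and 27.4 CPM in miR-21-KD tumours 1 to 4. The ranges overlapped almost wholly, with miR-21-KD tumour 4 lowest of the 8. Its log2 fold change was -0.03 (SE 0.17, edgeR adjusted p = 0.888), and the sign turned to 0.0056 with upper-quartile scaling and to 0.016 when every tumour had to hold 10 counts.

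Atf6 encodes the ER membrane sensor that is released as a transcription factor by the Golgi proteases of Mbtps1 and Mbtps2. VC tumours 1 to 4 had 123, 133, 119 and 125 CPM, and miR-21-KD tumours 1 to 4 had 94.7, 125, 110 and 91.4 CPM. Tumours 1, 3 and 4 of the knockdown group lay below every VC tumour and tumour 2 lay within the VC range. The log2 fold change was -0.25 (SE 0.11) and did not pass (edgeR adjusted p = 0.0988), but without miR-21-KD tumour 2 it was -0.34 and passed (edgeR adjusted p = 0.0165).

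Xbp1, the transcription factor made active by IRE1, was at 308, 262, 254 and 445 CPM in the VC tumours and at 350.1, 307, 370.4 and 338 CPM in the miR-21-KD tumours. VC tumour 4 was the highest of all 8, VC tumour 1 lay just inside the lower end of the knockdown range, and VC tumours 2 and 3 lay below it. The difference was 0.11 on the log2 scale (SE 0.18, edgeR adjusted p = 0.659). VC tumour 4 also had plasma cell markers (among them Jchain, Mzb1 and Derl3) summing to 1560 CPM, against 135 to 387 CPM in the other 7 tumours, and XBP1 is known as a factor that plasma cells need for secretion. Without VC tumour 4, the log2 fold change of Xbp1 was 0.31 and still did not pass (edgeR adjusted p = 0.0570). The part of these markers in the level of Xbp1 was not tested.

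Among the transcription factors of the integrated stress response, Atf3 was the member with the smallest adjusted p. Atf3, an immediate stress factor of the same bZIP family as ATF4, was at 70.5, 51.1, 56.4 and 59.7 CPM in VC tumours 1 to 4 and at 98.5, 71.7, 128 and 103 CPM in miR-21-KD tumours 1 to 4. All 4 knockdown tumours were above all 4 VC tumours, although the gap between miR-21-KD tumour 2 and VC tumour 1 was narrow. The means were 59.4 ± 8.22 and 100.2 ± 23.0 CPM (SD, n = 4 each), which gave a log2 fold change of 0.75 (SE 0.17, edgeR adjusted p = 0.0135). Atf3 passed with every single tumour left out (edgeR adjusted p = 0.00248 to 0.0437) and with the other tests, scalings and filters (adjusted p = 0.000559 to 0.0145).

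Atf4, the central factor of the response, was at 133, 106, 131 and 143 CPM in the VC tumours and at 124, 168, 207 and 162 CPM in the miR-21-KD tumours. Tumours 2, 3 and 4 of the knockdown group exceeded every VC tumour, and tumour 1 lay within the VC range. With means of 128 ± 16.1 and 165 ± 33.9 CPM (SD, n = 4 each) the log2 fold change was 0.37 (SE 0.16) and did not pass (edgeR adjusted p = 0.0955). Without miR-21-KD tumour 1 it was 0.48 and passed (edgeR adjusted p = 0.0350).

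Ddit3 encodes CHOP, a factor linked to cell death under lasting ER stress. Its levels were 36.8, 22.5, 35.6 and 25.9 CPM in VC and 23.5, 37.8, 43.6 and 33.8 CPM in miR-21-KD tumours 1 to 4, so the groups overlapped. The log2 fold change was 0.20 (SE 0.22, edgeR adjusted p = 0.497). In the gene models used here its exons share 68 bases with Mars on the opposite strand, 13 bases with Gm4189 on the opposite strand and 210 bases with a further gene model of the same name, and without a stated strand setting reads there cannot be told apart.

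Of the target genes, Trib3, a pseudokinase that binds ATF4 and AKT, showed the largest fold change of the 10 genes and also a wide spread. VC tumours 1 to 4 had 17.3, 12.3, 22.1 and 15.7 CPM, and miR-21-KD tumours 1 to 4 had 14.4, 50.1, 54.5 and 34.9 CPM. Tumours 2, 3 and 4 of the knockdown group were above every VC tumour, whereas tumour 1 was below 3 of the 4. The means were 16.8 ± 4.09 and 38.5 ± 18.1 CPM (SD, n = 4 each) and the log2 fold change was 1.19 (SE 0.38, edgeR adjusted p = 0.0361). The call was lost with the replicate block (log2 fold change 1.08, edgeR adjusted p = 0.0519), with no filter on low counts (edgeR adjusted p = 0.0558), with limma-voom (adjusted p = 0.0808) and when any tumour but miR-21-KD tumour 1 was left out (edgeR adjusted p = 0.0553 to 0.0932), and without that tumour the adjusted p was 0.0129.

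Sesn2 encodes sestrin 2, which restrains mTORC1 when amino acids run short. It was at 14.4, 10.9, 11.6 and 15.3 CPM in the VC tumours and at 20.2, 18.5, 21.96 and 17.5 CPM in the miR-21-KD tumours. The groups did not overlap, and miR-21-KD tumour 1 was the second highest of the 8. Means of 13.04 ± 2.13 and 19.5 ± 1.95 CPM (SD, n = 4 each) gave a log2 fold change of 0.58 (SE 0.15, edgeR adjusted p = 0.0166). Without VC tumour 3 the call was lost (edgeR adjusted p = 0.0530).

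Asns, which makes asparagine, was at 79.1, 55.4, 97.0 and 67.8 CPM in VC and at 47.6, 124, 121 and 85.7 CPM in miR-21-KD tumours 1 to 4. Here miR-21-KD tumour 1 was the lowest and tumours 2 and 3 the highest of the 8, and the log2 fold change of 0.34 (SE 0.30) did not pass (edgeR adjusted p = 0.383). Chac1, which breaks down glutathione, was at 12.2, 9.32, 15.2 and 19.5 CPM in VC and at 6.54, 25.2, 24.5 and 18.2 CPM in miR-21-KD tumours 1 to 4. The order was like that of Asns, with miR-21-KD tumour 1 lowest and tumours 2 and 3 highest, and the log2 fold change was 0.40 (SE 0.40, edgeR adjusted p = 0.438).

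**Figure D2:**
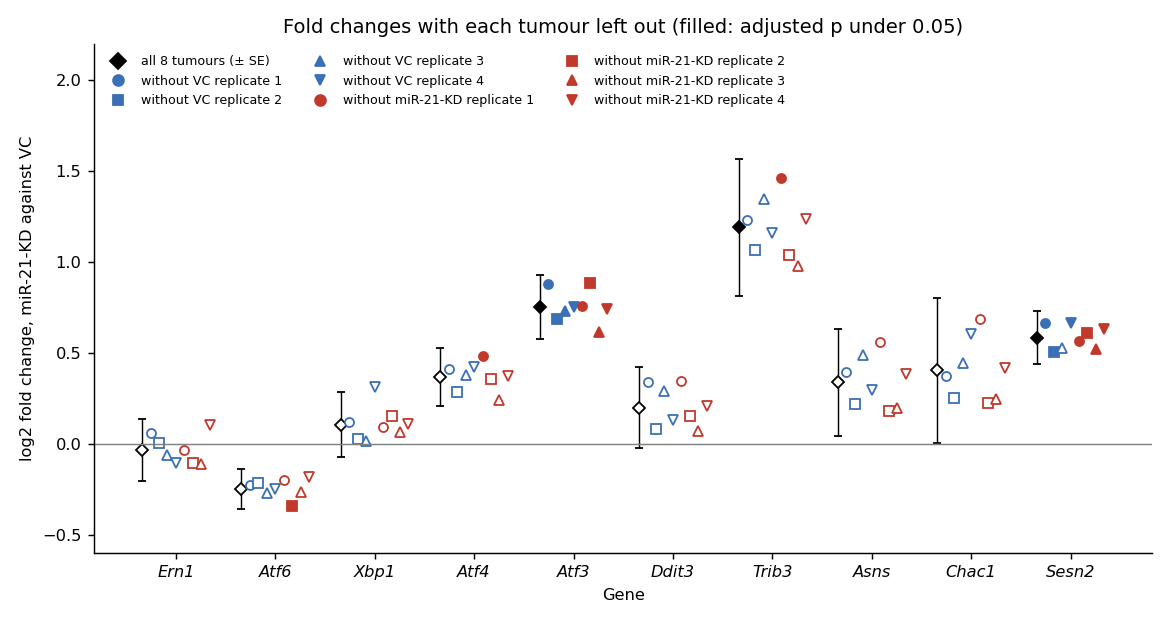
Log2 fold change (miR-21-KD against VC) of each gene with all 8 tumours (black diamonds, ± SE) and with each tumour left out (coloured points); filled symbols passed an adjusted p under 0.05. Atf3 is filled throughout, Trib3 is filled only with all 8 tumours and without miR-21-KD tumour 1, and Atf4 only without miR-21-KD tumour 1.

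For Atf4, Ddit3, Trib3, Asns and Chac1, miR-21-KD tumour 1 was below the VC mean while tumours 2, 3 and 4 were all above it. Among all tested genes 2.39% had this pattern, which was looked for after the values were seen. Relative to the VC mean, on the log2 scale, tumour 1 was at -1.10 for Chac1 and -0.65 for Asns, and tumour 3 at 0.80 and 0.69. Atf3 and Sesn2 did not share the pattern, being at 0.73 and 0.63 in tumour 1. The carcinoma epithelium markers were divided in this tumour. Krt8 and Krt18 were the lowest of the 8 tumours, at 173 and 188 CPM against 366 to 938 and 399 to 1210 CPM in the other 7, and with them the summed level of the list (1085 CPM, against 1306 to 2267 CPM). Krt5 and Krt14 were the highest of the 8, at 152 and 94.0 CPM, and Epcam (102 CPM), Cdh1 (139.8 CPM) and Krt19 (183 CPM) were above every VC tumour. The tumour also had the highest fibroblast marker sum (13016 CPM, against 1966 to 7847 CPM), and the part of these markers in the values was not tested.

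**Figure D3:**
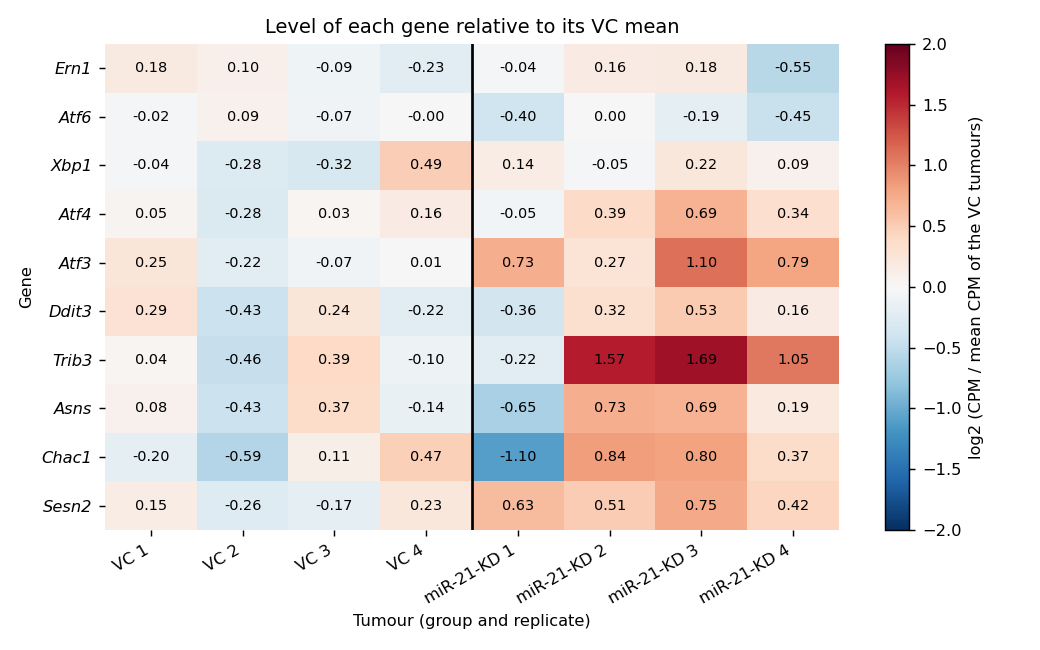
Log2 ratio of each tumour's CPM to the mean CPM of the 4 VC tumours, for the 10 genes (rows) in the 8 tumours (columns); red is above and blue below the VC mean. In miR-21-KD tumour 1, Chac1 (-1.10), Asns (-0.65), Atf6 (-0.40), Ddit3 (-0.36), Trib3 (-0.22), Atf4 (-0.05) and Ern1 (-0.04) are below the VC mean, while Atf3 (0.73), Sesn2 (0.63) and Xbp1 (0.14) are above it.

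Levels between genes were compared as CPM per kb of merged exons. In the VC tumours Xbp1 was the highest at 97.7 ± 27.2 CPM per kb (SD, n = 4), followed by Atf4 at 54.5 ± 6.82, and neither range met that of its neighbour. Atf3 (27.6 ± 3.81) and Asns (27.4 ± 6.46) were alike within their spread. Ddit3 (17.6 ± 4.16) overlapped with Asns above it and with Atf6 (13.5 ± 0.628) below it. Chac1 (8.59 ± 2.66) and Trib3 (7.92 ± 1.93) overlapped, as did Ern1 (4.90 ± 0.624) and Sesn2 (3.75 ± 0.612). In the miR-21-KD tumours the order by mean was that of the VC tumours except that Trib3 (18.1 ± 8.51) stood above Atf6 and Chac1 and Sesn2 (5.62 ± 0.562) above Ern1 (4.78 ± 1.02).

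The 3 genes nearest to Atf3 in pattern over the 8 tumours, by the root mean square distance between log2 CPM values set relative to each gene's VC mean, were Mcfd2 (0.107), Ostf1 (0.120) and Ppp1r15a (0.122). For Sesn2 they were Cd244a (0.0854), Runx3 (0.0883) and Acvr1b (0.0911). Ppp1r15a, the third of the Atf3 neighbours, is itself a gene of the integrated stress response, while the other neighbours are in none of the pathway lists used below.

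The wider pathway was read from 157 further genes in 9 lists, of which 153 were tested. Of these 16 were higher, 26 lower and 111 did not pass, with a median log2 fold change of -0.10. Higher calls thus made up 10.5% and lower calls 17.0%, beside 19.6% and 19.5% of all tested genes. Leaving out single tumours moved the higher calls between 9 (without VC tumour 3) and 23 (without VC tumour 4), with 10 without VC tumour 2, miR-21-KD tumour 3 or miR-21-KD tumour 4, and the lower calls between 14 (without VC tumour 2 or miR-21-KD tumour 4) and 41 (without miR-21-KD tumour 2), with 15 without VC tumour 3.

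**Figure D4:**
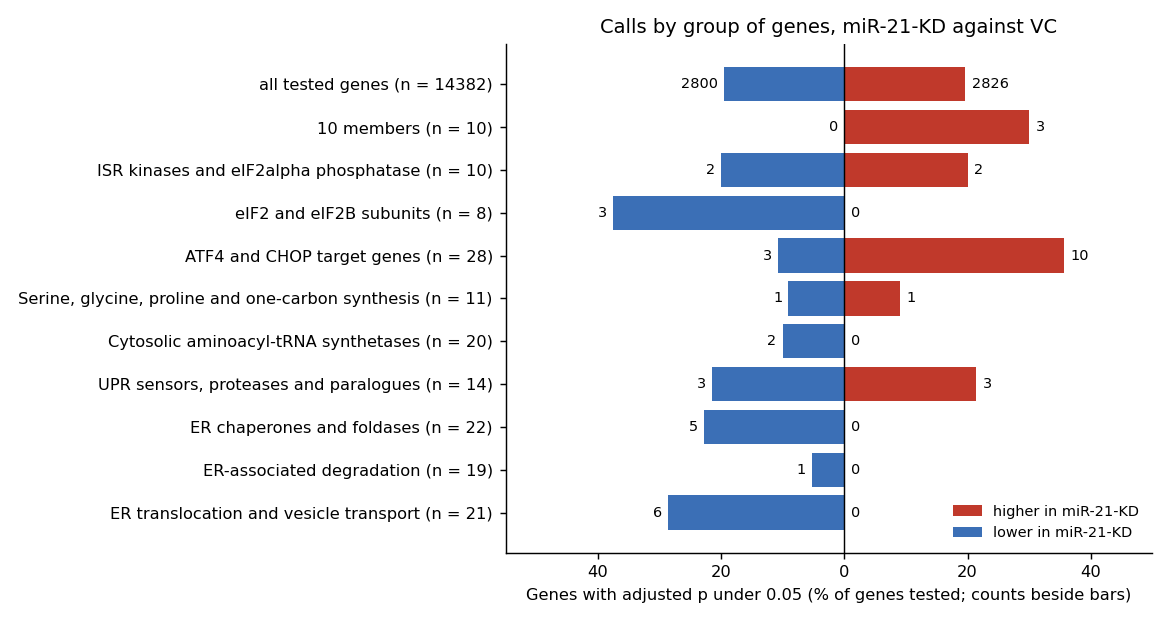
Percentage of tested genes called higher (red, right) or lower (blue, left) in miR-21-KD tumours for all tested genes, the 10 genes and each of the 9 lists, with the counts beside the bars. The list of ATF4 and CHOP target genes has 10 of 28 higher and 3 lower, while 5 lists, from eIF2 subunits to ER transport, have 0 higher.

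Of the 10 genes of eIF2alpha kinases and phosphatase, 2 were higher and 2 lower (20% each, beside 19.6% and 19.5% of all tested genes). Eif2ak3, which encodes PERK, the ER sensor kinase, was at 32.4, 26.8, 23.2 and 26.5 CPM in VC and at 43.2, 34.2, 36.1 and 38.9 CPM in miR-21-KD tumours 1 to 4. The groups did not overlap and the log2 fold change was 0.48 (SE 0.12, edgeR adjusted p = 0.0180), although without VC tumour 3 the call was lost (edgeR adjusted p = 0.0537). Ppp1r15a, or GADD34, the stress-induced subunit that reverses eIF2alpha phosphorylation, was at 46.0, 30.2, 34.4 and 35.3 CPM and at 56.4, 53.7, 80.5 and 58.6 CPM. It also separated the groups, with a log2 fold change of 0.77 (SE 0.17, edgeR adjusted p = 0.0115), and passed with any tumour left out. Eif2ak2, the kinase PKR that responds to double-stranded RNA, was lower at a log2 fold change of -0.47 (SE 0.13, edgeR adjusted p = 0.0233), and it did not pass without VC tumour 2, VC tumour 3, miR-21-KD tumour 3 or miR-21-KD tumour 4 (edgeR adjusted p = 0.0581 to 0.0613).

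Dnajc3, the ER co-chaperone P58IPK that restrains PERK, was at 267, 276, 264 and 269.9 CPM in the VC tumours and at 207, 211, 205 and 205 CPM in the miR-21-KD tumours. The spread within each group was small and the log2 fold change was -0.38 (SE 0.07, edgeR adjusted p = 0.00709). Eif2ak1, the heme-regulated kinase, and Eif2ak4, or GCN2, which senses uncharged transfer RNA, did not pass, at log2 fold changes of -0.14 and -0.07 (edgeR adjusted p = 0.222 and 0.664). Of the 8 subunits of eIF2 and its exchange factor eIF2B, 3 (37.5%, beside 19.5% of all tested genes) were lower and 0 (beside 19.6%) higher by edgeR, with 0 higher also at an unadjusted p under 0.05, by DESeq2 and by limma-voom. Among them Eif2b1 was at a log2 fold change of -0.45 and Eif2s1, which encodes eIF2alpha itself, at -0.38 (edgeR adjusted p = 0.0152 and 0.0429). The lower calls of the list fell to 1 with at least 10 counts required in every tumour and ranged from 1 to 2 with single tumours left out, with Eif2s1 passing only without VC tumour 4 or miR-21-KD tumour 2. Eif2s1 also did not pass with no filter on low counts (edgeR adjusted p = 0.0501) or with that stricter filter (0.0563).

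Of 28 tested ATF4 and CHOP target genes, the longest of the lists, 10 (35.7%) were higher and 3 (10.7%) lower, beside 19.6% and 19.5% of all tested genes, and the median log2 fold change was 0.18. Stc2, which encodes the secreted glycoprotein stanniocalcin 2, was at 7.07, 2.63, 4.56 and 7.75 CPM in VC and at 34.0, 23.9, 81.4 and 62.6 CPM in miR-21-KD tumours 1 to 4. Every knockdown tumour was above every VC tumour, with a 9.17-fold ratio of the means and a log2 fold change of 3.19 (SE 0.47, edgeR adjusted p = 0.00571). Jdp2, a bZIP repressor related to ATF3, was higher by 0.58 on the log2 scale (SE 0.09, edgeR adjusted p = 0.00573) and did not overlap between groups.

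Slc7a11, the cystine and glutamate exchanger, rose by 0.45 (SE 0.13, edgeR adjusted p = 0.0250) and Cebpb, a partner of ATF4 in the composite motif, by 0.47 (SE 0.15, edgeR adjusted p = 0.0336). Nupr1, a stress-induced chromatin protein, rose by 0.52 on the log2 scale (SE 0.18, edgeR adjusted p = 0.0475), a call that was lost with the replicate block (edgeR adjusted p = 0.0660), library size alone (0.0514), no filter on low counts (0.0681) and limma-voom (0.0615). Ddit4, an inhibitor of mTORC1, was at 0.69 without passing (SE 0.25, edgeR adjusted p = 0.0512), but passed with DESeq2 (adjusted p = 0.0180), upper-quartile scaling (0.0395) and 10 counts required in each tumour (0.0404). The other higher genes were Vldlr, Gpt2, Eif4ebp1, Slc3a2 and Slc1a5, named after their values were seen. Slc1a4, a transporter of neutral amino acids, was lower at -0.96 and did not overlap, with miR-21-KD tumour 1 lowest at 19.6 CPM against 36.9 to 69.1 CPM in the other knockdown tumours (edgeR adjusted p = 0.0449). Bcl2l11, the pro-apoptotic BIM, was lower at -0.46 (edgeR adjusted p = 0.0203), and the third lower gene was Sqstm1, the autophagy receptor p62, named after its value was seen. Gdf15, a stress cytokine, had 4, 1, 2 and 7 counts in VC and 8, 1, 9 and 13 in miR-21-KD tumours 1 to 4 and was not tested. With no filter on low counts, Cebpb and Slc1a4 did not pass (edgeR adjusted p = 0.0513 and 0.0641). Leaving out single tumours also ended several of these calls while the fold changes kept their direction: Cebpb did not pass without VC tumour 2, 3 or 4 or miR-21-KD tumour 3 or 4 (log2 fold change 0.40 to 0.51, edgeR adjusted p = 0.0606 to 0.0906), Slc7a11 not without VC tumour 2 or 3 or miR-21-KD tumour 1 or 3 (0.35 to 0.45, adjusted p = 0.0556 to 0.0620), and Bcl2l11 not without VC tumour 2 or miR-21-KD tumour 3 or 4 (-0.44 to -0.37, adjusted p = 0.0555 to 0.0568). Nupr1 and Slc1a4 did not pass without any 1 of the VC tumours or miR-21-KD tumour 3 or 4 (log2 fold changes 0.33 to 0.58 and -1.08 to -0.87, edgeR adjusted p = 0.0598 to 0.104 and 0.0542 to 0.112), while Ddit4 also passed without VC tumour 1 (0.0361) or miR-21-KD tumour 1 (0.0289). The higher calls of the list were 5 without VC tumour 2 or miR-21-KD tumour 3 and 6 without VC tumour 3 or miR-21-KD tumour 4, and the lower calls were 0 without VC tumour 2 or miR-21-KD tumour 4 and 1 without VC tumour 1, VC tumour 3 or miR-21-KD tumour 3.

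Of 11 genes of serine, glycine, proline and one-carbon synthesis 1 was higher and 1 lower (9.09% each, beside 19.6% and 19.5% of all tested genes). Aldh1l2, a mitochondrial folate enzyme, was at 33.4, 12.98, 27.2 and 15.6 CPM in VC and at 57.2, 53.4, 74.5 and 52.1 CPM in miR-21-KD tumours 1 to 4, with no overlap and a log2 fold change of 1.41 (SE 0.29, edgeR adjusted p = 0.0100). Shmt1, the cytosolic serine hydroxymethyltransferase, was at -0.64 (SE 0.19, edgeR adjusted p = 0.0294), and Psat1, a step of serine synthesis, at -0.39 without passing (edgeR adjusted p = 0.307). With the replicate block 2 genes of the list were higher, and 2 also without VC tumour 4 or miR-21-KD tumour 1. The lower calls were 0 without VC tumour 1, VC tumour 2, VC tumour 3 or miR-21-KD tumour 3, where Shmt1 did not pass (edgeR adjusted p = 0.0559 to 0.0850), and 2 without miR-21-KD tumour 2.

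Among the 20 cytosolic aminoacyl-tRNA synthetases, 2 (10.0%, beside 19.5% of all tested genes) were lower and 0 (beside 19.6%) higher by edgeR, with 0 higher also at an unadjusted p under 0.05, by DESeq2 and by limma-voom. Qars was at a log2 fold change of -0.51 (SE 0.11, edgeR adjusted p = 0.0115) and Kars at -0.58 (SE 0.15, edgeR adjusted p = 0.0187), the synthetases for glutamine and lysine. Within the knockdown group the list was ordered by tumour: miR-21-KD tumour 1 was the lowest of the 4 for 19 of 20 synthetases, for 8 of 8 eIF2 and eIF2B subunits and for 9 of 11 genes of the serine list, against 32.0% of all tested genes. The median log2 ratio of the synthetases to the VC mean was -0.54 in tumour 1, 0.15 in tumour 2, -0.04 in tumour 3 and -0.24 in tumour 4, while the VC tumours lay between -0.06 and 0.12. This ordering was also looked for after the values were seen. Without miR-21-KD tumour 2, 7 of the 20 were called lower, beside 3493 of all 14382 tested genes. Without VC tumour 3 or miR-21-KD tumour 4, 1 was lower, beside 1483 and 1611 of all tested genes. Kars did not pass there (edgeR adjusted p = 0.0557 and 0.0560). Without VC tumour 4, 1 was higher, beside 2930 of all tested genes.

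**Figure D5:**
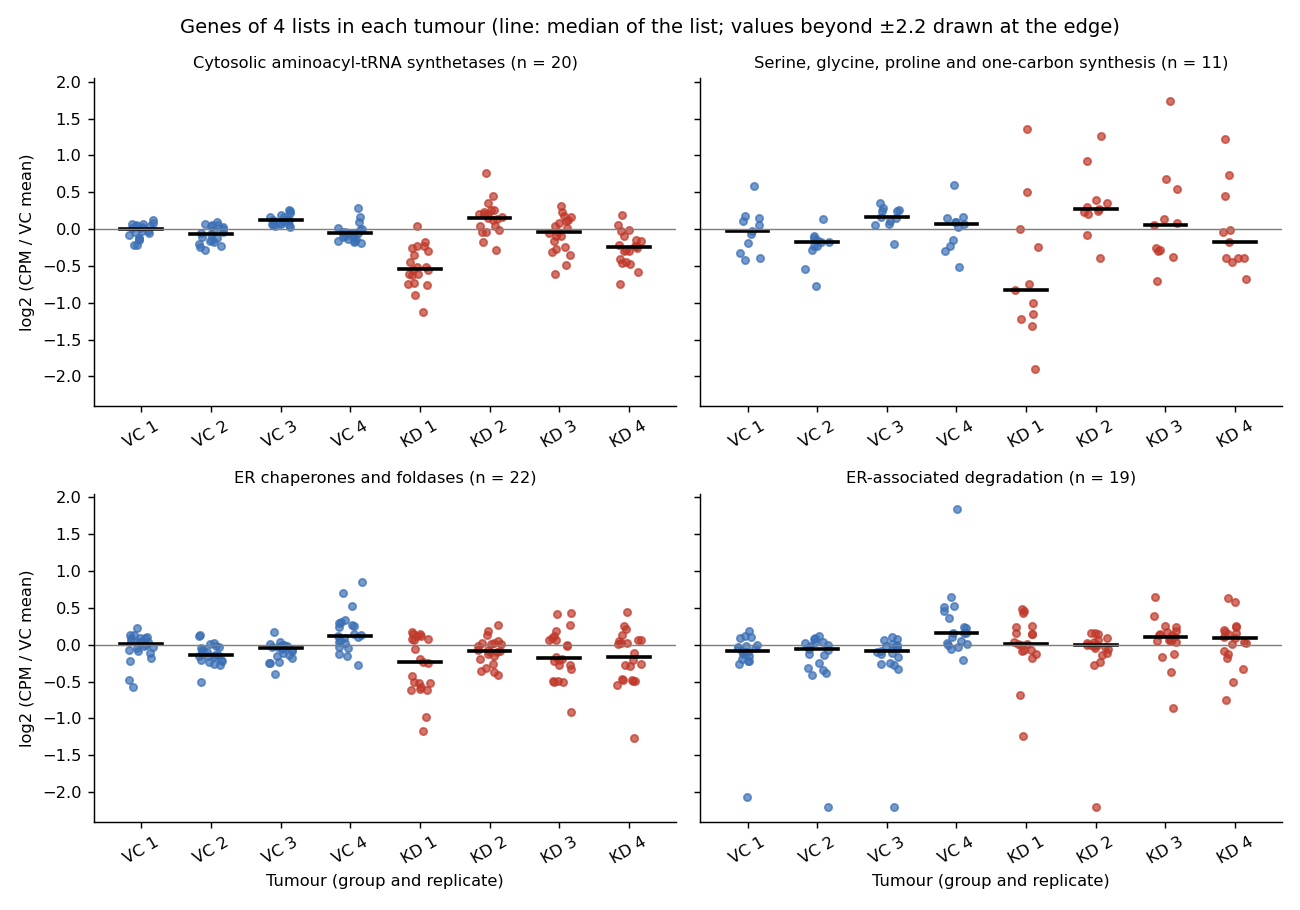
Log2 ratio of CPM to the VC mean for each gene of 4 lists (points) in each tumour, with the median of the list as a black line; values beyond the axis are drawn at its edge. The synthetases have a median of -0.54 in miR-21-KD tumour 1 and of 0.15 in tumour 2, and the ER-associated degradation genes have their highest median, 0.16, in VC tumour 4.

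A list of paralogues of the ER sensors, the proteases that cut them and other genes of the ER membrane, IRE1 signalling and cell death (Traf2, Wfs1, Tmbim6, Rtcb, Bax and Bak1) had 14 tested genes. Of these 3 were higher, 3 lower and 8 did not pass, and the shares of 21.4% in each direction were close to those of all tested genes. Mbtps1, the site-1 protease that cuts ATF6, was at 197, 250.4, 245 and 203 CPM in VC and at 134, 161, 134 and 119 CPM in miR-21-KD tumours 1 to 4. No values overlapped and the log2 fold change was -0.71 (SE 0.12, edgeR adjusted p = 0.00679). Mbtps2, the site-2 protease, was at -0.52 (SE 0.11, edgeR adjusted p = 0.00930) and also did not overlap. Creb3l1, an ATF6-like factor known for collagen secretion, was higher by 1.31 (SE 0.34, edgeR adjusted p = 0.0180), and Creb3l3, its liver relative, by 1.78 (SE 0.46, edgeR adjusted p = 0.0185) from 1.31 ± 0.551 to 4.53 ± 1.91 CPM (SD, n = 4 each). Creb3l1 did not pass without VC tumour 3 (edgeR adjusted p = 0.0537) and Creb3l3 not without miR-21-KD tumour 4 (edgeR adjusted p = 0.0522), and in both cases 1 gene of the list was higher. The remaining calls, named after their values were seen, were Tmbim6, higher by 0.38, and Creb3l2, lower at -0.49 (edgeR adjusted p = 0.0421 and 0.0260).

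ER chaperones and foldases held 5 lower genes of 22 (22.7%, beside 19.5% of all tested genes) and 0 higher (beside 19.6%) by edgeR, and 0 were higher at an unadjusted p under 0.05, by DESeq2 and by limma-voom. At an unadjusted p under 0.05, 8 were lower (beside 25.4% of all tested genes), with 7 by DESeq2 (beside 21.7%) and 5 by limma-voom (beside 20.2%). Hspa5, or BiP, the main ER chaperone and a common readout of ER stress, was at 2218, 1954, 2085 and 2007 CPM in VC and at 1048, 1927, 1839 and 1468 CPM in miR-21-KD tumours 1 to 4. All knockdown tumours were below all VC tumours, and the log2 fold change of -0.40 (SE 0.19) did not pass (edgeR adjusted p = 0.122). Hsp90b1, or GRP94, was at -0.34 (SE 0.15, edgeR adjusted p = 0.0916) and passed only with DESeq2 (adjusted p = 0.0459) and without miR-21-KD tumour 2 (edgeR adjusted p = 0.0255).

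Dnajb9, an ER co-chaperone and known target of XBP1, was at 0.17 without passing (SE 0.14, edgeR adjusted p = 0.381). Uggt1, which tests the folding of glycoproteins, was at 468, 523, 544 and 400.0 CPM in VC and at 215, 365, 256 and 202 CPM in miR-21-KD tumours 1 to 4. It separated the groups with a log2 fold change of -0.90 (SE 0.20, edgeR adjusted p = 0.0118), and Txndc5, a disulfide isomerase, did so with -0.45 (SE 0.09, edgeR adjusted p = 0.00800). The lower calls of the list were 8 without miR-21-KD tumour 2 and 3 without VC tumour 2, miR-21-KD tumour 1 or miR-21-KD tumour 4, and the higher calls were 2 without VC tumour 4 and 1 without miR-21-KD tumour 2. Without miR-21-KD tumour 2, 3493 of all 14382 tested genes were lower.

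Of 19 genes of ER-associated degradation 1 was lower (5.26%, beside 19.5% of all tested genes) and 0 higher (beside 19.6%) by edgeR. At an unadjusted p under 0.05, 1 was higher (beside 25.3% of all tested genes), DESeq2 called 4 higher (beside 24.0%), limma-voom 0 (beside 19.8%) and the replicate block 2 (beside 23.0%), and leaving out VC tumour 4 or miR-21-KD tumour 2 also gave 2. Derl1, part of the exit channel for misfolded proteins, was at -0.41 (SE 0.10, edgeR adjusted p = 0.0169) and did not pass without VC tumour 3 (edgeR adjusted p = 0.0548). Herpud1, a degradation factor induced by ATF4 and ATF6, was at 66.9, 58.6, 60.8 and 104 CPM in VC and at 99.8, 81.1, 95.4 and 113 CPM in miR-21-KD tumours 1 to 4. VC tumour 4 alone lay within the knockdown range. The log2 fold change of 0.42 (SE 0.19) did not pass (edgeR adjusted p = 0.112), but it passed without VC tumour 4 (0.65, edgeR adjusted p = 0.0104) and with the replicate block (0.45, adjusted p = 0.0177).

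VC tumour 4 was the highest of the VC tumours for 16 of 22 ER chaperones and foldases and for 12 of 19 degradation genes, against 30.6% of all tested genes, a pattern looked for after the values were seen. Derl3, which is in the degradation list and also in the plasma cell list, was at 23.2 CPM there and between 0.319 and 3.83 CPM in the other 7 tumours. The same tumour holds the high plasma cell marker sum given with Xbp1, whose part in these values was not tested.

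ER translocation and vesicle transport had 6 lower genes of 21 tested (28.6%, beside 19.5% of all tested genes) and 0 higher (beside 19.6%) by edgeR, with a median log2 fold change of -0.23, and 0 were higher at an unadjusted p under 0.05, by DESeq2 and by limma-voom. Lower genes numbered 12 at an unadjusted p under 0.05 (beside 25.4% of all tested genes), 9 by DESeq2 (beside 21.7%) and 7 by limma-voom (beside 20.2%). Ssr2, a subunit of the translocon-associated complex, was at 232, 254, 251 and 296 CPM in VC and at 163, 178, 173 and 181 CPM in miR-21-KD tumours 1 to 4, with no overlap and a log2 fold change of -0.57 (SE 0.09, edgeR adjusted p = 0.00632). Sec11c, a catalytic subunit of the signal peptidase, was at -0.84 (SE 0.17, edgeR adjusted p = 0.00974) and did not overlap. With scaling by library size alone 10 genes of the list were lower, and without miR-21-KD tumour 2 it was 11, beside 2920 and 3493 of all 14382 tested genes. Without VC tumour 4 there was 1 higher gene.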

How the data were processed

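RNA sequencing of 8 tumours, 4 per group, was analysed. The authors deposited raw counts per gene by Entrez identifier with no normalization, and the processing notes of the submitters name Subread, featureCounts, edgeR, limma and mm10, while versions, annotation and strand setting are not given in the sources used here. Symbols, matched for 25275 of 27179 identifiers, and gene positions come from GRCm38.p6 annotation, and exons and UTRs from GENCODE M21. The counts were tested in R 4.3.3 with edgeR 4.0.16: filterByExpr (minimum count 10, minimum total 15) kept 14382 genes with 99.9% of the counts, libraries were scaled by TMM, and a robust quasi-likelihood test was adjusted by Benjamini and Hochberg with a threshold of 0.05. CPM used the library size times the TMM factor, with a prior count of 2 for log2 values. The scripts were tested on simulated data. Alternatives were DESeq2 1.42.0, limma-voom (limma 3.58.1), other scalings and filters, a replicate block, and each tumour left out.

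The 10 genes, the lists and the tests were chosen with earlier results of these data known. All 10 genes were named, with the called genes of smallest adjusted p in each list (up to 2 per direction), 16 genes set by name, and the 3 nearest patterns to each of the 2 members with the smallest adjusted p. Tumours carry the numbers 1 to 4 in each group, and no source names a pairing. After removal of group means, tumours of the same number correlated at 0.175 to 0.421. The 12 remaining combinations correlated at -0.393 to 0.393 with a mean of -0.105, so that some unmatched tumours were more alike than matched ones. Removing the group means itself makes the mean of the remaining combinations negative where the matched mean is positive. These values therefore cannot decide whether the numbers mark pairs. The main test used the group alone, without pairs. A fit with the replicate number as a block was an alternative, and its value is given where it changes a call. Tumours of a group differed by more than sampling noise, and p-values measure the spread between these tumours. The tumours of a group grew from the same pool of clones, so the p-values do not cover differences between pools.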

Additional observations from a re-analysis of the deposited data

Results flagged for a closer look

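In 90 groups of 4 tumours (each named gene in each group), 2 had a tumour far from the other 3 by Dixon's test at the 95% level, which chance gives in about 1 of 20 groups. Eif2ak1 was at 74.8 CPM in VC tumour 4, where the nearest VC tumour had 63.6 CPM. Txndc5 was at 315 CPM in miR-21-KD tumour 2, where the nearest knockdown tumour had 279 CPM, and every knockdown tumour remained below every VC tumour for this gene.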

How the results depend on the processing

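Of the 10 genes, 3 were called with all tumours, and between 1 (without VC tumour 3) and 4 (without miR-21-KD tumour 1) with single tumours left out, the same range for calls in the higher direction. Calls in the lower direction ranged from 0 to 1, the 1 being Atf6 without miR-21-KD tumour 2. DESeq2, library size scaling, upper-quartile scaling and a filter of 10 counts in every tumour gave 3 calls, and no filter, limma-voom and the replicate block gave 2. Ern1 changed sign with upper-quartile scaling (0.0056 on the log2 scale), with 10 counts required in each tumour (0.016) and between -0.11 and 0.10 with single tumours left out, never passing the test, and the cause was not tested. Over all genes 5626 were called, with 2948 (without VC tumour 3) to 6725 (without miR-21-KD tumour 2) when single tumours were left out, of which 1465 to 3232 were higher and 1483 to 3493 lower, and 3269 without VC tumour 2 and 3357 without miR-21-KD tumour 4, while 1872 were higher without miR-21-KD tumour 1 and 1769 lower without miR-21-KD tumour 3. DESeq2 called 6550 and the replicate block 6485. In the 9 lists, 16 higher calls became 9 to 23 and 26 lower calls 14 to 41 with single tumours left out. Among the named genes the replicate block changed only the calls of Trib3, Nupr1 and Herpud1. A count of 0 allows up to 0.245 CPM, and with 4 tumours a group the spread between tumours, not the counting error, limits genes such as Chac1.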
